A study of Rattus norvegicus with 10 samples.

Results

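The miRNAs described here are rno-miR-297, rno-miR-466b-5p, rno-miR-466c-5p, rno-miR-466c-3p and rno-miR-466d, a group of rodent miRNAs with simple UG or CA repeats in their sequence. They were chosen by name from the probe list of the array, which held all 5 of them among 761 rat miRNA probes. RNA was taken from the left ventricles of Wistar rats, all male and weighing 250 g to 350 g. In the Control group (5 arrays) saline was infused, and in the DEX group (5 arrays) dexmedetomidine was given for 30 min, in each case followed by a short saline washout per the study's methods. Each array held Cy5-labelled RNA of 1 rat, and no allele or second agent set the groups apart. Dexmedetomidine (DEX) is a sedative that activates alpha2 adrenergic receptors. The comparison asks whether the abundance of these miRNAs in the ventricle differed after the infusion.

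A miRNA is cut from a hairpin transcript and guides the silencing of mRNAs that pair with its seed, bases 2 to 8. In mouse and rat, a large set of miRNA genes including the miR-466 genes has multiplied inside the Polycomb gene Sfmbt2, and in the mouse this set is best known from placenta and embryonic stem cells. Either arm of such a hairpin can give a mature miRNA, named 5p or 3p. Because the copies differ by few bases and are rich in alternating U and G (5p arms) or A and C (3p arms), a capture probe for 1 of them may also bind another.

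The mature sequences from RefSeq (assembly GRCr8) are shown first because their seeds differ from each other and from those of the other array miRNAs with a sequence. All are written 5′ to 3′ with the seed in capitals.
rno-miR-297: aUGUAUGUgugcauguaugcaug
rno-miR-466b-5p: uAUGUGUGuguguauguccaug
rno-miR-466c-5p: uGUGAUGUguguauguacaug
rno-miR-466d: aUGUGUGUguauguucuuuugu
rno-miR-466c-3p: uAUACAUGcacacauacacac
The 5 seeds were all different. No other miRNA on the array with a RefSeq sequence (687 of 761 names had one) shared any of them. The sequence of rno-miR-466d lies on the 5′ arm of its hairpin, so 4 of the 5 members are 5′ arm miRNAs and rno-miR-466c-3p is the 3′ arm partner of rno-miR-466c-5p.

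The repeat itself is printed next, with the longest run of alternating U and G, or of alternating A and C, in capitals. The 2 further lines are probes of the same family that are not members, the 3′ arm partners of rno-miR-466b-5p.
rno-miR-297: auguaUGUGUGcauguaugcaug
rno-miR-466b-5p: uaUGUGUGUGUGUauguccaug
rno-miR-466c-5p: ugugaUGUGUGUauguacaug
rno-miR-466d: aUGUGUGUGUauguucuuuugu
rno-miR-466c-3p: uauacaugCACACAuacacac
rno-miR-466b-3p: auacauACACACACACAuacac
rno-miR-466b-2-3p: auauacauACACACAuacaca
The run of U and G was 11 bases long in rno-miR-466b-5p, 9 in rno-miR-466d, 7 in rno-miR-466c-5p and 6 in rno-miR-297, and the run of A and C was 6 bases long in rno-miR-466c-3p. A run of at least 6 such bases, starting with either base and read on the mature strand only, was held by 27 of the 687 array miRNAs with a sequence (3.93%), the 5 members included. A run of 8 was held by 5 of 687 (0.728%), among them rno-miR-466b-5p and rno-miR-466d.

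The longest identical stretch between 2 members was the 13 bases uguguguguaugu, shared by rno-miR-466b-5p and rno-miR-466d. Rno-miR-466b-5p and rno-miR-466c-5p shared 11 bases (uguguguaugu) and differed by only 4 single-base changes, insertions or deletions over their whole length. Rno-miR-297 shared 8 bases (uaugugug) with rno-miR-466b-5p and 7 (uguaugu) with both rno-miR-466c-5p and rno-miR-466d.

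The table of genes placed the miR-466 genes and the miR-297 gene on different chromosomes. Mir466d (chr17:72913004-72913096), Mir466c (chr17:72927601-72927679), Mir466b-2 (chr17:72942463-72942544) and Mir466b-1 (chr17:72945493-72945578) all lie on the minus strand within 32.6 kb, inside the interval of Sfmbt2 (chr17:72844037-73038599), which is transcribed from the same strand. Rno-miR-466b-5p is encoded by both Mir466b-1 and Mir466b-2 with the same mature sequence, so its probe cannot tell those genes apart. Mir297 (chr10:98715682-98715747, minus strand) lies inside the interval of the long noncoding RNA gene LOC102549836, so in GRCr8 miR-297 does not lie with the others in Sfmbt2. Whether each miRNA gene is exonic or intronic was not determined here.

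**Figure D1:**
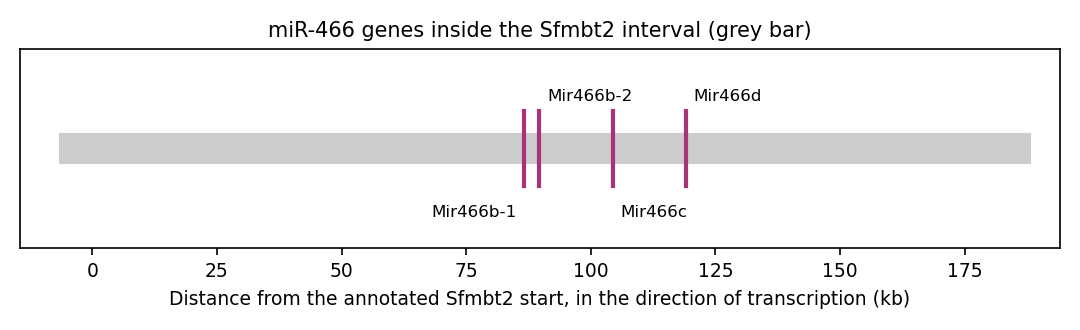
Map of the 4 miR-466 genes within the Sfmbt2 interval, with the distance from the Sfmbt2 start of the promoter table on the horizontal axis (kb, in the direction of transcription) and the annotated interval of the gene as a grey bar, which begins before that start. The genes sit 86.6, 89.7, 104.5 and 119.1 kb from that start, in the order Mir466b-1, Mir466b-2, Mir466c, Mir466d.

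The hairpins of the 2 genes for which one was available are shown with the mature part in capitals. The share of repeat in each precursor was not measured.
Mir297: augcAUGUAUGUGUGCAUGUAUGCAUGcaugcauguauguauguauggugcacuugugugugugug
Mir466d: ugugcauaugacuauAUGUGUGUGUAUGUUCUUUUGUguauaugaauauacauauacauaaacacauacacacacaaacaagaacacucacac

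Across the array, between 483 and 533 of 761 miRNAs were detected per array, and 405 (53.2%) were detected on all 10. The chip identifiers in the array names give 3 slides. Slide 1 held Control arrays 1 to 4, slide 2 held the fifth Control array and the first 3 of DEX, and slide 3 held the last DEX pair, so only slide 2 had both groups. DEX 1 was the dimmest array before scaling, with a median of 17.3 intensity units over the blank spots against 35.4 to 53.5 on the other 9, and spots without a probe stood highest on DEX 4 and DEX 5 (37.7 and 28.8 over blank, against -0.797 to 10.2 on slides 1 and 2). The labelled tissue was checked with 6 heart muscle miRNAs, all of them detected on every array, whose summed signal was 32202 to 46018 in Control and 31097 to 45001 in DEX. The 7 blood cell miRNAs were likewise detected on every array, with a summed signal of 1352 to 1829 in Control and 1181 to 2031 in DEX. The part of blood and of the slide in the values below was not tested beyond the numbers given beside them.

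Of the 5 members, 4 were detected on all 10 arrays and rno-miR-297 on none. All values below are normalized signals, which are spot intensities over the blank mean scaled to a median of 25 over the detected miRNAs of each array. A lower value in ventricle RNA can come from fewer cells of a type or from less RNA per cell, which cannot be told apart here. Levels of different probes are not compared, since probes differ in affinity.

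Rno-miR-297 (MIMAT0000899) is the member whose probe gave no signal above the blank spots in either group. Its normalized value over blank was 1.13, 2.62, 0.376, -1.60 and 1.07 on the 5 Control arrays in order of their number, and -0.590, 0.219, -0.499, -0.597 and -1.64 on the 5 DEX arrays. The lowest detected value of any miRNA, the floor of an array, was 3.64 to 5.09, so only this upper limit on its level can be given. Its spot lay between -0.885 and 1.16 blank SD from the blank mean, below the limit of 2 SD, and between 18.2% and 75.1% of the blank spots were brighter than it. With the limit at 3 SD it was likewise detected on 0 of 10 arrays. By comparison, 126 of the 761 miRNAs (16.6%) were detected on no array. No difference between groups was detectable for rno-miR-297, and none was tested. The 3 other UG-bearing members were detected on these same arrays. Whether any of these probes binds the target of another was not tested.

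Rno-miR-466d (MIMAT0017824) carried a run of 9 alternating U and G right at its seed. Its normalized signal was 65.3, 103, 83.9, 87.0 and 87.4 on the 5 Control arrays in order of their number, and 72.8, 63.1, 91.0, 45.7 and 110.0 on the 5 DEX arrays. The lowest and the highest array were both DEX arrays and both on slide 3, and the Control values lay between them. The Control mean was 85.2 ± 13.3 and the DEX mean 76.5 ± 24.9 (± SD over 5 rats), and DEX minus Control was -0.21 ± 0.22 on the log2 scale (SE, adjusted p from limma 0.905, exact permutation test p = 0.437). The 95% interval ran from -0.69 to 0.28 on the log2 scale, a ratio of DEX to Control between 0.621 and 1.21. A 1.5-fold lower level lay inside it and a 2-fold difference in either direction outside it. The model behind this interval had no slide term, although slide and group were largely tied. Without DEX 4 the log2 difference was -0.035. Its spot stood 19.9 to 48.1 blank SD above the blank mean on all 10 arrays. The pooled within-group SD was 0.38 on the log2 scale, above that of 159 of the 168 miRNAs (94.6%) in the brightest part of those tested, whose median was 0.22. By group, the log2 SD was 0.23 over the Control arrays and 0.49 over the DEX arrays.

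Rno-miR-466b-5p (MIMAT0005278) has the longest run of U and G in the group. Its normalized signal was 34.7, 33.8, 26.4, 21.7 and 39.4 on the 5 Control arrays in order of their number, and 43.8, 36.8, 24.9, 28.3 and 30.6 on the 5 DEX arrays. The groups overlapped over most of their range, with a DEX array highest and a Control array lowest. The Control mean was 31.2 ± 7.06 and the DEX mean 32.9 ± 7.47 (± SD over 5 rats), which differed by 0.079 ± 0.20 on the log2 scale (SE, adjusted p from limma 0.930, exact permutation test p = 0.698). The 95% interval on the ratio of DEX to Control was 0.781 to 1.43, which leaves out a 1.5-fold difference in either direction. That holds only for this model without a slide term, although slide and group were largely tied. With slide as a fixed term the log2 difference was -0.20. The sign of this difference changed when 1 array was left out, to -0.044 without Control 4 and -0.0315 without DEX 1. Relative to the median of all miRNAs it stood at 0.035, with the median of all at 0.044, and without scaling between arrays it was -0.13 while the median of all was -0.16.

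Rno-miR-466c-5p (MIMAT0005279) differs from rno-miR-466b-5p by few bases but has another seed. Its normalized signal was 19.1, 29.0, 20.1, 20.5 and 12.9 on the 5 Control arrays in order of their number, and 22.5, 15.2, 14.7, 21.3 and 20.3 on the 5 DEX arrays. Both the highest array (Control 2) and the lowest (Control 5) were Control arrays, and every DEX value lay between them. The Control mean was 20.3 ± 5.77 and the DEX mean 18.8 ± 3.59 (± SD over 5 rats), which differed by -0.087 ± 0.21 on the log2 scale (SE, adjusted p from limma 0.930, exact permutation test p = 0.690). The 95% interval on the ratio was 0.685 to 1.29, again from the model without a slide term. On slide 2, the only slide with both groups, all 3 DEX arrays were above the single Control array (14.7 to 22.5 against 12.9), a log2 difference of 0.41 where the smallest possible exact p is 0.25, and without Control 2 the difference over the remaining 9 arrays was 0.054.

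Rno-miR-466c-3p (MIMAT0017287), the 3′ arm of the same hairpin, was the steadiest member. Its normalized signal was 29.1, 23.3, 25.3, 25.8 and 31.4 on the 5 Control arrays in order of their number, and 27.1, 28.5, 26.4, 21.8 and 24.0 on the 5 DEX arrays. The highest array was Control 5, which was the lowest for rno-miR-466c-5p, and the lowest was DEX 4, so the groups overlapped. The Control mean was 27.0 ± 3.24 and the DEX mean 25.6 ± 2.66 (± SD over 5 rats), which differed by -0.076 ± 0.14 on the log2 scale (SE, adjusted p from limma 0.914, exact permutation test p = 0.476). The 95% interval on the ratio was 0.772 to 1.17, the narrowest of the members, from the model without a slide term. Rno-miR-466c-3p had a log2 difference of 0.026 without slide 3, where all arrays were DEX. Its pooled SD of 0.16 on the log2 scale was above that of only 14 of the 167 miRNAs (8.38%) in the middle part by brightness, whose median was 0.29, while rno-miR-466c-5p in the same part had 0.36.

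**Figure D2:**
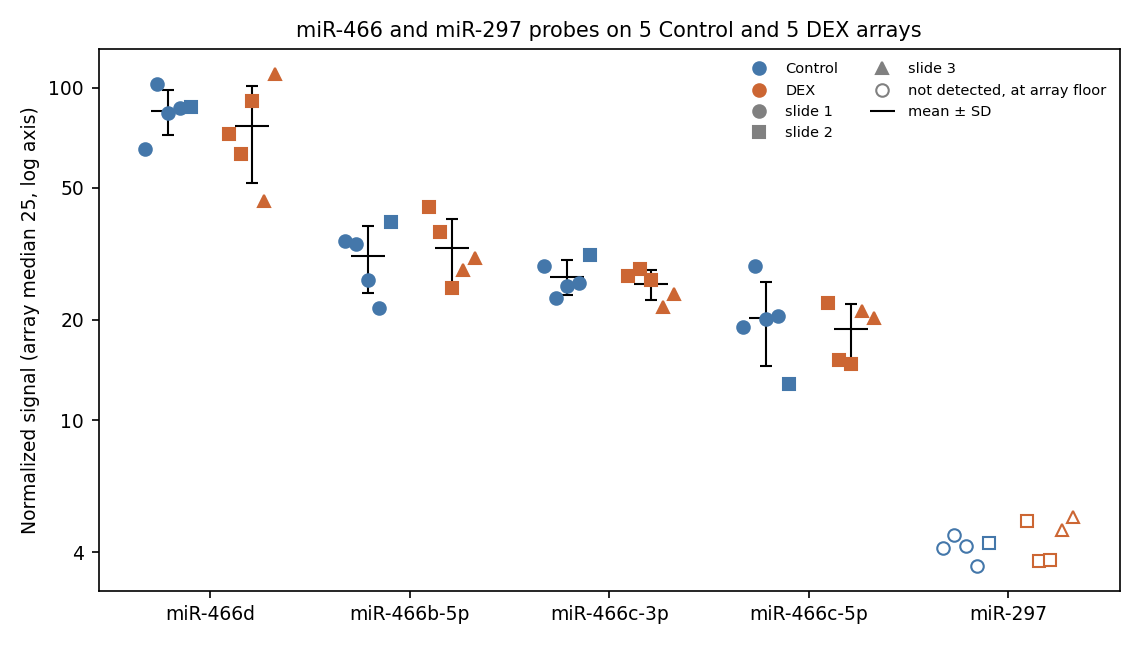
Normalized signal of each member on the 5 Control and 5 DEX arrays (log axis, points by array, marker shape by slide, black bars for mean ± SD, levels of different probes not comparable). The groups overlap for all 4 detected members, and rno-miR-297 is drawn as open symbols at the floor of each array (3.64 to 5.09).

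With limma over the 503 miRNAs detected on at least 5 arrays, 0 of the 4 tested members and 0 of all 503 (0%) passed an adjusted p of 0.05. At an unadjusted p under 0.05 there were 0 of 4 members, against 15 of 503 (2.98%) over all miRNAs. The groups overlapped in all 4 tested members, and they were free of overlap in 3 of 503 (0.596%). The methods' t-test at their threshold (1.5-fold in size and an unadjusted p under 0.05) was applied to the log2 values used here, not to the study's own. It likewise picked 0 of 4 members and 8 of 503 (1.59%), which is not the study's own count. The median log2 difference was -0.081 over the 4 tested members, of which 3 were below 0, and 0.044 over all tested miRNAs, of which 205 of 503 (40.8%) were below 0. On slide 2 alone, with 1 Control array to compare, the log2 differences were -0.20 for rno-miR-466b-5p, -0.20 for rno-miR-466c-3p, -0.23 for rno-miR-466d and 0.41 for rno-miR-466c-5p. The median of all miRNAs was -0.19 there, and relative to it the first 3 stood at -0.016, -0.014 and -0.039, while rno-miR-466c-5p lay 0.60 above it.

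The array held 2 further probes of the family, both for 3′ arms. Rno-miR-466b-3p averaged 48.5 ± 11.2 over the Control arrays and 47.5 ± 9.32 over the DEX arrays (± SD, 5 rats a group), which differed by -0.018 ± 0.20 on the log2 scale (SE, adjusted p from limma 0.985). The probe that the files name for both rno-miR-466b-2-3p and rno-miR-466b-4-3p averaged 21.4 ± 4.20 over the Control arrays and 18.1 ± 1.57 over the DEX arrays (± SD, 5 rats a group), which differed by -0.22 ± 0.16 on the log2 scale (SE, adjusted p from limma 0.905). Both were detected on all 10 arrays. No probe on the array was named miR-467, miR-574 or miR-669 (0 probes), the other families of this kind that were looked for.

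Among all 27 miRNAs with a run of at least 6 alternating bases, 23 were detected on at least 1 array, 19 were tested and 0 passed an adjusted p of 0.05 with limma (0 at an unadjusted p under 0.05 as well). Their median log2 difference was -0.087, with 14 of 19 below 0. The list is mixed in kind: besides the members it holds muscle miRNAs such as rno-miR-1-3p (log2 difference 0.16) and rno-miR-206-3p (0.087), the ubiquitous rno-let-7b-5p (0.091), rno-miR-672-5p (-0.19) and rno-miR-672-3p (-0.12), rno-miR-342-3p (-0.089), rno-miR-34c-3p (-0.061) and rno-miR-496-5p (0.016), all with limma adjusted p between 0.905 and 0.985. When the list was parted by kind of repeat, after the values had been seen, the 8 tested miRNAs with a run of U and G were spread around 0 (5 higher, 3 lower, median 0.047), and all 11 tested miRNAs with a run of A and C had a difference below 0 (median -0.12). These 11 were led by rno-miR-362-3p (-0.40), rno-miR-329-3p (-0.33) and rno-miR-6316 (-0.29), and 3 of them were miR-466 probes with differences of -0.22, -0.076 and -0.018. None passed the test, and the share below 0 over all tested miRNAs was 40.8%. Within slide 2, and equally with slide as a fixed term, 8 of 11 miRNAs with A and C (72.7%) and 6 of 8 with U and G (75%) were below 0, against 378 of all 503 (75.1%), so neither kind stood apart by that count. With normexp on the background column, 11 of 11 with A and C and 7 of 8 with U and G were below 0 (medians -0.071 and -0.062), against 57.7% of all miRNAs. Without scaling between arrays, every one of the 11 and of the 8 was below 0, against 85.3% of all. Under these settings the count below 0 hardly set the kinds of repeat apart, but that count moves with all miRNAs. Below the median of all miRNAs, without scaling, were 11 of 11 with A and C and 4 of 8 with U and G. These counts were 11 of 11 and 7 of 8 with normexp on the background column, and 8 of 11 and 5 of 8 with slide as a fixed term. Some other settings kept the contrast below 0, such as spike control scaling (10 of 11 and 3 of 8) and the series value table (11 of 11 and 3 of 8). It was smaller with normexp on the blank mean (8 of 11 and 5 of 8) and without background correction (8 of 11 and 4 of 8). In the values as reported, 11 of 11 and 4 of 8 were below the median of all miRNAs. The contrast was not tested.

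Of the 8 untested miRNAs in the list, rno-miR-297, rno-miR-377-3p, rno-miR-293-5p and rno-miR-568 were detected on no array. Rno-miR-291a-3p and rno-miR-32-3p were each detected on 1 array, and rno-miR-493-3p and rno-miR-539-5p on 4. Rno-miR-32-3p holds a run of 9 alternating U and G, as long as that of rno-miR-466d, which was detected on every array.

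**Figure D3:**
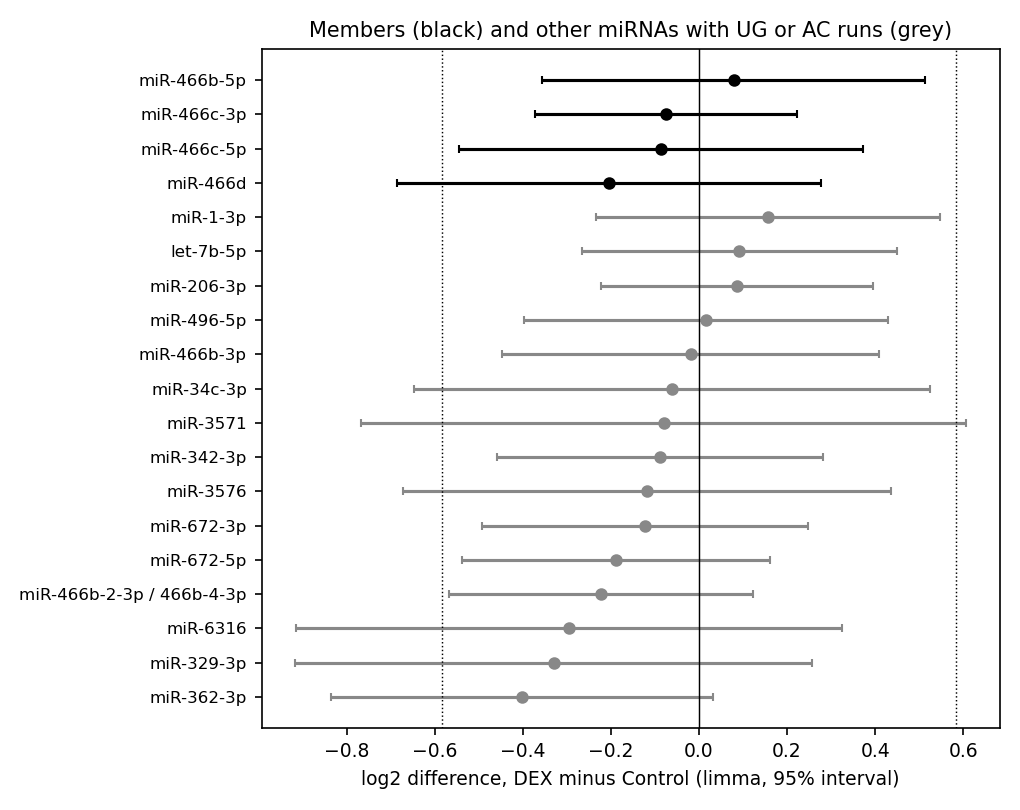
Log2 difference of DEX minus Control with its 95% interval (limma) for the 4 tested members in black and the 15 other tested miRNAs with a run of UG or AC in grey, with dotted lines at 1.5-fold (0.585 on the log2 scale). Every interval includes 0, and those of 3 of the 4 members lie within the dotted lines, rno-miR-466d being the exception. The model behind the intervals had no slide term.

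The arms of 1 hairpin come from the same transcript, and their log2 ratio within an array does not depend on the scaling between arrays. For rno-miR-466c, the log2 of the 3p over the 5p signal was 0.61, -0.32, 0.34, 0.33 and 1.29 on the 5 Control arrays in order of their number, and 0.27, 0.91, 0.84, 0.036 and 0.24 on the 5 DEX arrays. The group means were 0.45 ± 0.58 and 0.46 ± 0.39 (SD, n = 5 each), a difference of 0.010 (two-sided exact permutation test, p = 0.976). For rno-miR-466b the same ratio, of rno-miR-466b-3p over rno-miR-466b-5p, averaged 0.63 ± 0.10 over the Control arrays and 0.54 ± 0.28 over the DEX arrays (± SD, 5 rats a group), a difference of -0.097 (two-sided exact permutation test, p = 0.484). With 5 arrays a group this exact test cannot go below p = 0.00794. Neither arm ratio differed beyond the spread between replicates. The ratio of the rno-miR-466c arms had the larger SD among the Control arrays, 0.58 against 0.10 for the rno-miR-466b arms, and this difference in spread was not tested. The 5p arm of rno-miR-466b has the same sequence at both of its genes, so that ratio is not of 1 hairpin alone.

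Likeness between members was described by Pearson correlations of log2 signal over the 10 arrays, which share arrays and scaling. Over all pairs of 501 miRNAs with a value on every array the median was 0.23, with quartiles at -0.066 and 0.51. The probes with the longest shared stretch, rno-miR-466b-5p and rno-miR-466d, stood at -0.13, and rno-miR-466b-5p and rno-miR-466c-5p at -0.066. Rno-miR-466d stood at 0.076 with rno-miR-466c-5p and 0.056 with rno-miR-466c-3p, and rno-miR-466b-5p at 0.46 with rno-miR-466c-3p. As scaled here, the 3 pairs of UG-bearing members all stood below the median of all pairs. For rno-miR-466b-5p and rno-miR-466d the value was 0.53 without scaling, -0.27 with spike control scaling and -0.60 in the series value table. With normexp it was -0.39 on the background column and -0.33 on the blank mean. The other pairs of UG-bearing members were not checked under these settings. Cross-hybridization between the probes was not tested.

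In the values as scaled here, the arm pairs stood at opposite ends among the miR-466 probes. Rno-miR-466b-5p, whose sequence is the same at both of its genes, and rno-miR-466b-3p moved together at 0.78 (0.68 without Control 4 and DEX 1). That value was 0.51 both with spike control scaling and in the series value table, and -0.32 with normexp on the background column. Rno-miR-466c-5p and rno-miR-466c-3p stood at -0.71, and at -0.44 without Control 2 and Control 5. The value was -0.48 in the series value table, -0.79 and -0.66 with normexp on the background column and on the blank mean, and 0.014 with spike control scaling. Within slides 1 and 2, with only 4 arrays each, it was -0.82 and -0.58. Without scaling it was 0.63, where the brightness of each array enters every probe alike. Rno-miR-466c-3p and the probe for rno-miR-466b-2-3p, which differ by 3 single-base changes, insertions or deletions and sit next to each other on the chip, stood at 0.54.

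**Figure D4:**
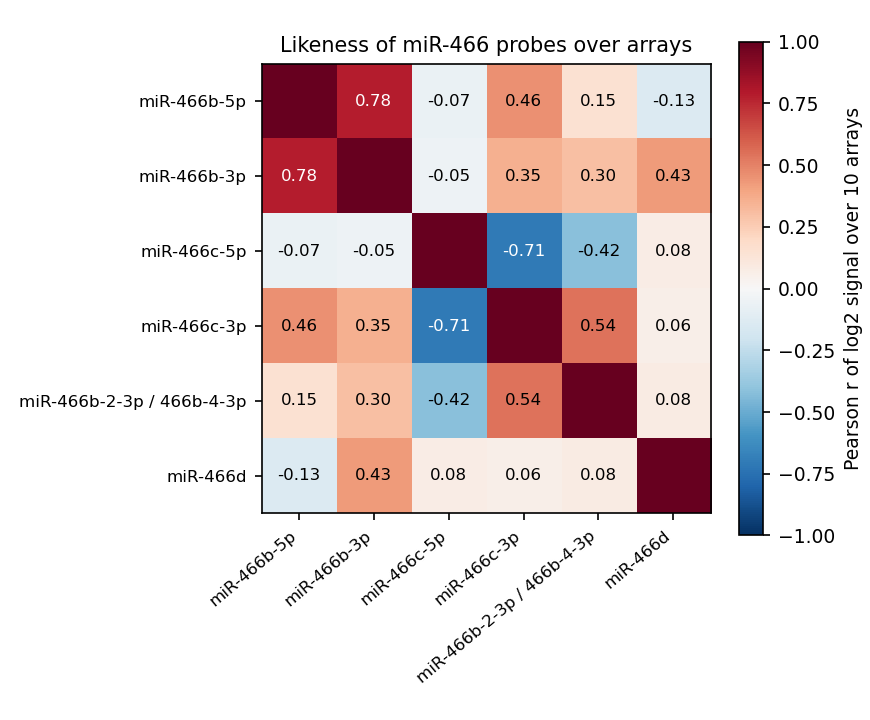
Pearson correlation of log2 signal over the 10 arrays between the 4 detected members and the other 2 miR-466 probes (colour scale from -1 to 1, values printed in the cells). The rno-miR-466b arms stand at 0.78 and the rno-miR-466c arms at -0.71, and the pairs of UG-bearing members lie between -0.13 and 0.076.

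The miRNAs outside the group most like each member over the 10 arrays were of other kinds. For rno-miR-466b-5p they were the muscle miRNA rno-miR-133a-3p (r = 0.90), rno-miR-3547 (0.90) and rno-miR-1839-3p (0.90). For rno-miR-466d they were rno-miR-328a-5p (0.89), rno-miR-3473 (0.85) and rno-miR-762 (0.85). For rno-miR-466c-5p they were rno-miR-598-5p (0.86), rno-miR-3586-5p (0.81) and rno-miR-329-3p (0.78), and for rno-miR-466c-3p they were rno-miR-154-5p (0.78), rno-miR-1306-3p (0.78) and rno-miR-370-3p (0.77). Of these 12, only rno-miR-329-3p holds a run of at least 6 alternating bases among those with a RefSeq sequence, and the nearest miR-466 probe of rno-miR-466b-5p, its own 3′ arm, ranked 45th.

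**Figure D5:**
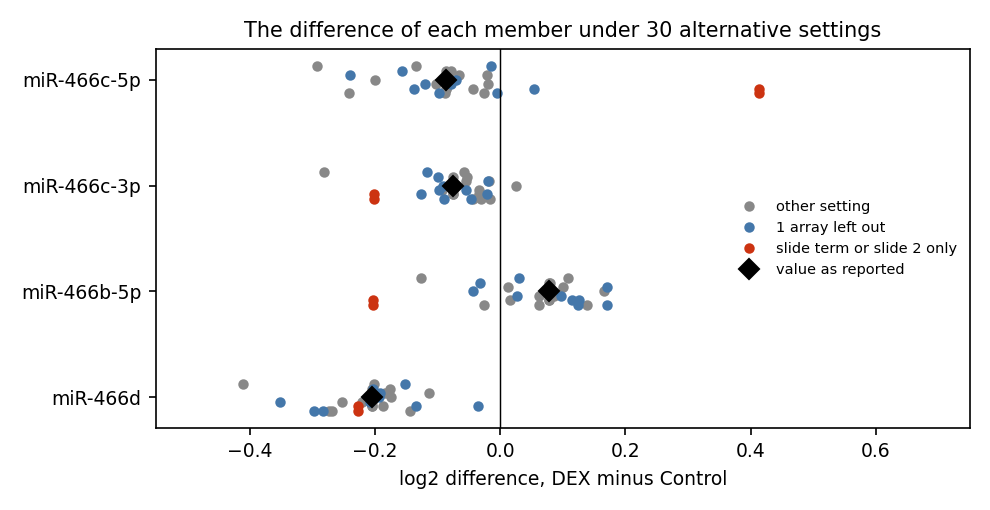
Log2 difference of DEX minus Control of each tested member as reported (black diamond) and under 30 alternative settings (grey for other settings, blue for 1 array left out, red for slide as a term or slide 2 only). Rno-miR-466d stays below 0 throughout (-0.41 to -0.035), and rno-miR-466c-5p spans the widest range (-0.29 to 0.41). The low end of each is the setting without scaling between arrays, where the median of all miRNAs was -0.16.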

How the data were processed

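Left ventricle RNA carried Cy5 per the labels and went on rat miRNA chips per the study's methods, 1 rat per array. The authors' scanner files hold the median spot intensity at 635 nm, merged from 3 gain settings with no background removed. The deposited series value table holds the authors' score per miRNA, globally scaled to a median of 25 and empty where not detected. Software versions and the miRBase release are not given in the sources used here.

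From each spot the mean of 1664 blank spots (5% trimmed at each end) was subtracted, and arrays were scaled to a median of 25 over their detected miRNAs. Undetected miRNAs were set to the array's lowest detected value, spots with a flag were treated as missing, and values were put on the log2 scale. Detection follows the series value table. A limit of the blank mean plus 2 SD differed from it in 2 of 7610 calls. limma 3.58.1 (R 4.3.3) compared the groups over 503 miRNAs, those with detection on 5 or more arrays (two-sided, Benjamini-Hochberg, threshold 0.05), with code tested on simulated data. Single values were compared with exact permutation tests (scipy 1.17.1). Sequences and positions are RefSeq's, GRCr8. The members and lists were chosen with earlier results of these data known. Named are the members, the miRNAs with a run of 6 alternating bases, and the 3 most like each member. The number of arrays limits the precision. Alternatives covered background, scaling, floor, filter, detection limit, model, slide, replicate block, t-test, length of the run and leaving out arrays.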

Additional observations from a re-analysis of the deposited data

Results flagged for a closer look

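Among 12 groups of 5 arrays (the 4 detected members and the other 2 miR-466 probes, by group), 1 had a lone extreme value, where chance gives about 1 in 20, or 0.6 of these 12. It was the probe for rno-miR-466b-2-3p and rno-miR-466b-4-3p in DEX, where DEX 3 stood at 20.8 against 16.8 to 17.9 on the other DEX arrays, a gap of 0.715 of the range of the log2 values (critical value 0.71). No member had such an array.

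On slide 3, the spots that carry no probe had a median over blank of 37.7 (DEX 4) and 28.8 (DEX 5), above the 6.62 to 10.2 of the Control arrays. These spots are part of no comparison. Over blank in the same units, DEX 4 and DEX 5 gave 45.6 and 35.1 for rno-miR-466c-5p and 46.8 and 41.4 for rno-miR-466c-3p. They gave 60.6 and 52.9 for rno-miR-466b-5p and 97.8 and 189.7 for rno-miR-466d. The detection limit of 2 SD was set by the blank spots, not by the spots without a probe. The same arrays held the lowest and the highest value of rno-miR-466d, and the part of slide 3 in those values was not tested beyond leaving it out, which gave a log2 difference of -0.17.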

How the results depend on the processing

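The count of 0 members called was the same under all 32 alternatives, where the members' smallest adjusted p lay between 0.620 and 0.997. Over all miRNAs the count was 0 under 31 of 32, and 8 with the methods' t-test at their threshold, which is not adjusted (0 after Benjamini-Hochberg). Detection of the 5 members was unchanged at 3 SD (0 or 10 arrays), and 0 repeat-bearing miRNAs were called with a run of 8. The direction of rno-miR-466d held under 30 of 30 alternatives, but not all of these could change it. Since it was detected on every array, the settings of floor, filter and replicate block left its difference at -0.2051. Slide as a fixed term and slide 2 only gave the same value, -0.2263. Rno-miR-466b-5p turned to -0.026 with normexp on the background column, -0.13 without scaling and -0.20 with slide as a fixed term or slide 2 only. Rno-miR-466c-5p became 0.41 on slide 2 alone and, equally, in the model with a slide term, and rno-miR-466c-3p became 0.026 without slide 3. Leaving out 1 array (Control 2 turned rno-miR-466c-5p, Control 4 and DEX 1 each turned rno-miR-466b-5p) gave -0.044 to 0.17 for rno-miR-466b-5p, -0.24 to 0.054 for rno-miR-466c-5p, -0.13 to -0.019 for rno-miR-466c-3p and -0.35 to -0.035 for rno-miR-466d. The unadjusted count over all miRNAs, 15, ranged from 7 to 36 (36 without Control 5). The median of all miRNAs moved from 0.044 to -0.16 without scaling and -0.19 with slide as a fixed term. With replicate number as a block, 0 miRNAs and 0 members were called (35 at an unadjusted p under 0.05) and the difference of rno-miR-466d stayed at -0.21. The numbers did not pair the arrays: 1 of 5 pairs had a correlation of deviations over 0.1, and 1 of 5 Control arrays was most like the DEX array of its own number. No result could be given for rno-miR-297 in any alternative of the test, since it was detected on 0 arrays.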
